A study of Mus musculus with 7 samples.

Results

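The DNA replication and repair genes measured here are the enzymes and complexes that copy chromosomal DNA and mend it. They were chosen by gene symbol: the families Mcm, Orc, Gins, Rfc, Rpa, Pola, Pold, Pole, Prim, Rrm, Top, Rad, Fanc, Brca, Xrcc, Msh, Mlh and Parp, and single genes of the replication fork such as Cdc45, Fen1, Chaf1a and Tyms. Of the 9294 genes tested, those with a probe that carries 1 gene symbol, 39 matched, each through 1 probe. With no filter on low values all 39 entered the fit. Other members of these families, among them Pcna, Mcm7, Top2a and Parp1, were not analysed here. No member of the Orc, Rpa, Pola, Prim or Mlh families was analysed, and Topors was the only gene that matched the Top prefix.

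The arrays, Affymetrix chips hybridised with labelled cDNA of whole tissue, were 4 of paracardial fat, the fat beside the heart, and 3 of intra-abdominal fat. All arrays came from wild-type male C57 mice with no treatment named, and their age is not given in the sources used here. Per the labels the arrays are biological replicates, but nothing states that every one is a different mouse, so p-values measure only the spread between these samples. Values are log2 expression values, and every difference below is paracardial minus intra-abdominal fat on that scale.

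A gene was called higher or lower where its limma p-value was under 0.05 after Benjamini-Hochberg adjustment across the 9294 genes. The highest value on an array, its ceiling, was between 19.81 and 19.93, and no member lay within 0.1 of it on any array. Paracardial array 4 and intra-abdominal array 3 share the highest ceiling, 19.93, and differences within these 2 arrays and within the other 5 are given where they matter. The paracardial arrays went against their label in part, with low adipocyte genes and high thymic genes, so whether they hold mainly fat is in doubt, and depot names below are those of the labels. The 9 adipocyte genes measured had medians of 6.02, 6.23, 8.96 and 9.68 on paracardial arrays 1 to 4, against 14.63, 14.41 and 16.02 on intra-abdominal arrays 1 to 3. The adipocyte hormone gene Adipoq stood at 5.18, 5.53, 9.92 and 9.73 on the paracardial arrays, against 11.74, 12.71 and 13.45 on the intra-abdominal arrays. The 6 thymocyte genes measured had medians of 11.84, 11.10, 12.78 and 14.17 on the paracardial arrays, against 9.74, 6.11 and 5.30 on the intra-abdominal arrays. Intra-abdominal array 1 thus stood above arrays 2 and 3 of its depot in thymocyte genes, so whether it holds only fat is also in doubt.

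Chromosomes are copied once per cell cycle. Before S phase the origin recognition complex, Cdc6 and Cdt1 load the ring-shaped MCM helicase, built of Mcm2 to Mcm7, onto origins. In S phase Cdc45 and the GINS complex join the ring and switch it on, the clamp loader RFC places the PCNA ring, and DNA polymerases epsilon and delta extend the new strands from deoxynucleotides that ribonucleotide reductase and thymidylate synthase supply. Mismatch repair, homologous recombination, the Fanconi pathway and the PARP enzymes correct or rejoin DNA, and some of them act outside S phase. Many replication genes are transcribed under E2F factors as cells enter S phase, so they are known as markers of dividing cells. Mature adipocytes divide little, while developing lymphocytes divide fast.

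Promoters of 4 genes with large depot differences are shown first, because replication genes are known for E2F sites and CCAAT boxes near their starts. Of these, Mcm6, Rrm1 and Rrm2 passed the test below and Mcm5 did not (adjusted p = 0.051). RefSeq promoter windows of GRCm38.p6, 250 bases before to 50 bases after the start, were on hand for 31 of the 39 members, with 34 windows in all. The letters TTTNNCGC, a loose pattern for the core of E2F sites with any letter at N, and CCAAT were searched on both strands. Other forms of E2F sites were not searched. In the 180 bases before the start, capitals mark both motifs, CCAAT also where it reads ATTGG. Mcm6 lies at chr1:128359706-128359885 on the minus strand, Mcm5 at chr8:75109329-75109508 on the plus strand, Rrm1 at chr7:102441515-102441694 on the plus strand and Rrm2 at chr12:24708074-24708253 on the plus strand.
Mcm6: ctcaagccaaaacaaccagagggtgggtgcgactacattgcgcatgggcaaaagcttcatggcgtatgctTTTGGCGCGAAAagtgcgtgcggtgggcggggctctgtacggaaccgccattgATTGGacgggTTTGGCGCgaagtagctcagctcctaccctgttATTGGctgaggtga
Mcm5: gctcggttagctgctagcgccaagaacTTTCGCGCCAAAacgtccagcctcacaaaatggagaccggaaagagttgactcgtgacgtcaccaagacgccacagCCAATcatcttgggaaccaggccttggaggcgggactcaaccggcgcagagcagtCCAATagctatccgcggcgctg
Rrm1: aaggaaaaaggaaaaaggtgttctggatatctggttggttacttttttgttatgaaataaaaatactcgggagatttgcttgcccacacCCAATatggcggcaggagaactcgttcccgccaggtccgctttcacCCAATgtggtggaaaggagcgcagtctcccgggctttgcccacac
Rrm2: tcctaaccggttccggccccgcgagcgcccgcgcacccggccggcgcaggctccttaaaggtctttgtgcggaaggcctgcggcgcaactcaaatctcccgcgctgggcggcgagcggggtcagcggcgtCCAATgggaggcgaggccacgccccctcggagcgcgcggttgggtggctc

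In both Mcm promoters a pair of TTTNNCGC matches on opposite strands overlapped in 12 bases. These read TTTGGCGCGAAA at positions -110 to -99 of Mcm6 and TTTCGCGCCAAA at positions -153 to -142 of Mcm5, counted from the start, and each is the reverse complement of the other. Of 32851 promoter windows in the table, 4 held these 12 letters on either strand. The Rrm1 and Rrm2 windows held CCAAT and no TTTNNCGC. The matches of Mcm3, Tyms and Msh6 lay after the start and are shown in short windows on the gene's strand, with the motif in capitals. The Mcm3 windows are at chr1:20820276-20820303 and chr1:20820263-20820284 and the Tyms window at chr5:30073576-30073594, all on the minus strand, and the Msh6 window at chr17:87975055-87975082 on the plus strand.
Mcm3, first match: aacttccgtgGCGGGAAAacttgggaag
Mcm3, second match: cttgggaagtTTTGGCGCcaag
Tyms: aggtcctggtTTTGTCGCt
Msh6: tcctcccgacTTTCCCGCcagcggcggc

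TTTNNCGC occurred in 13 of the 34 member windows (38.2%), against 5.17% of all 32851 windows. The member promoters were rich in CG, with a median of 21 CG pairs in the member windows against 7 over all windows. Among windows with at least 10 CG pairs the shares were 37.9% of 29 member windows and 9.37% of 14281 windows. CCAAT occurred in 17 of the 34 member windows, against 37.4% of all windows. Of the 9 windows of genes called higher below, 4 held TTTNNCGC and 7 held CCAAT, against 9 and 10 of the 25 windows of members not called. A match is a description of the letters and does not show that a factor binds there.

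Across all members, 11 of 39 were called higher in paracardial fat and none lower by limma, and none of the 5 with a difference below 0 had an unadjusted p under 0.05. The share called higher was 28.2% of the members, against a background of 6.25% of all genes tested. Of all genes 2.91% were called lower and 9.16% in either direction. The median difference was 0.85 over the members and 0.13 over all genes. Once each array was centred on its own median, these medians were 0.69 and -0.024, and 13 members were called higher and none lower. The split of all calls depended on the scaling, with 581 of 851 higher as deposited, 436 of 910 after another quantile normalization and 453 of 1024 after cyclic loess, where 15 and 13 members were higher and none lower. Of the 39 members, 34 had a difference above 0, beside 5628 of all 9294 genes. Every paracardial array lay above every intra-abdominal array in 25 members (64.1%), against 18.0% of all genes. In arrays of whole tissue, more cells of a type and more RNA per cell cannot be told apart. Taken apart by ceiling, the set of 5 arrays and the set of 2 both gave a difference above 0 in 33 members. Both were below 0 in 3 members, and the sets differed in sign in 3. For the 25 members with every paracardial array higher, a difference above 0 in both sets was fixed in advance. The plot of differences by role shows where the calls lie.

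**Figure D1:**
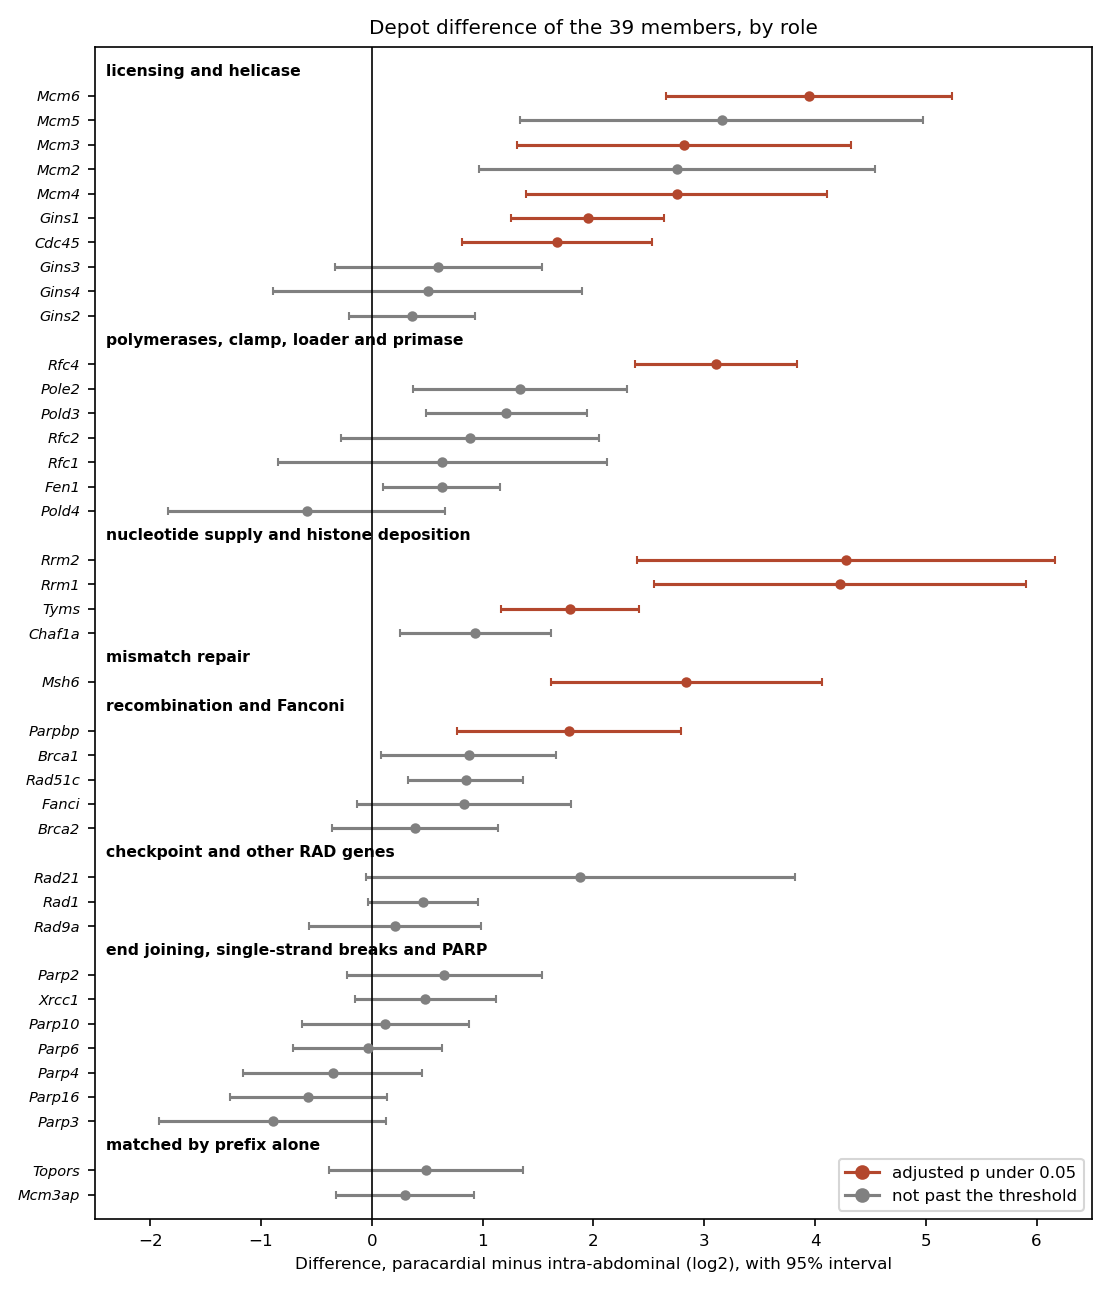
Difference between depots, paracardial minus intra-abdominal fat on the log2 scale, for each of the 39 members with its 95% confidence interval, grouped by role. The 11 called genes (red) sit in 5 of the 8 roles, with 5 in licensing and helicase, and no gene of the PARP or RAD groups is among them.

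The helicase and its activators held the most calls. Of 10 genes 5 were called higher, Mcm6, Mcm3, Mcm4, Gins1 and Cdc45, and all 10 differences were above 0, with a median of 2.35. Mcm6, a subunit of the ring, had log2 values of 10.35, 10.35, 10.25 and 11.97 on paracardial arrays 1 to 4, against 7.55, 6.14 and 6.66 on intra-abdominal arrays 1 to 3. The lowest paracardial array lay 2.70 above the highest intra-abdominal array. The difference was 3.95 with a standard error of 0.54 (adjusted p = 0.0123). When the 7 arrays were left out in turn it lost its call once, without intra-abdominal array 2 (adjusted p = 0.0544).

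Mcm3, another ring subunit, stood at 8.47, 8.78, 8.42 and 10.79 on the paracardial arrays, against 6.73, 5.78 and 6.40 on the intra-abdominal arrays. Mcm4, a ring subunit phosphorylated by the kinase Cdc7 when origins fire, stood at 9.54, 9.40, 9.70 and 11.46 on the paracardial arrays, against 7.94, 6.93 and 6.95 on the intra-abdominal arrays. In both genes paracardial array 4 stood apart above arrays 1 to 3, and the depots did not overlap. The difference was 2.81 ± 0.63 (± SE, adjusted p = 0.0414) for Mcm3 and 2.75 ± 0.57 (adjusted p = 0.0327) for Mcm4. Left-out arrays ended both calls: Mcm3 passed only without paracardial array 4 (0.0252), with 0.0697 to 0.157 in the other 6 fits, and Mcm4 also without intra-abdominal array 1 (0.048), with 0.0618 to 0.133 in the other 5.

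Mcm5 and Mcm2, ring subunits that form the gate through which DNA enters, had differences of the same size and did not pass. Mcm5 stood at 8.30, 8.23, 8.13 and 10.96 on the paracardial arrays, against 6.39, 5.17 and 5.68 on the intra-abdominal arrays (difference 3.16 ± 0.76, adjusted p = 0.051). Mcm2 stood at 8.91, 8.69, 8.43 and 11.41 on the paracardial arrays, against 7.16, 6.33 and 6.34 on the intra-abdominal arrays (2.75 ± 0.75, adjusted p = 0.0711). Neither gene overlapped between depots, and the spread in paracardial fat was wide, with an SD of 1.37 for Mcm5 and 1.38 for Mcm2 (n = 4). Without paracardial array 4, the highest in both genes, the differences were 2.47 for Mcm5 (adjusted p = 0.0257) and 2.07 for Mcm2 (0.0275), both past the threshold. The 5 ring subunits among the members had differences of 2.75 to 3.95 over all arrays, of which 3 passed.

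Cdc45, the partner that activates the ring, averaged 7.79 ± 0.62 in paracardial fat (SD, n = 4) and 6.13 ± 0.17 in intra-abdominal fat (SD, n = 3), with a difference of 1.67 ± 0.36 (adjusted p = 0.0363). Gins1, a GINS subunit, averaged 6.93 ± 0.47 in paracardial fat and 4.98 ± 0.14 in intra-abdominal fat, with a difference of 1.95 ± 0.29 (adjusted p = 0.0148). The other GINS subunits, which sit in one complex with Gins1, had smaller differences that did not pass: 0.36 for Gins2, 0.60 for Gins3 and 0.51 for Gins4 (adjusted p = 0.423, 0.423 and 0.652). Their 95% intervals ran to 0.93, 1.54 and 1.90, and the difference between GINS subunits was not tested. Gins4 stood at 8.70 on paracardial array 4 and 8.10 on intra-abdominal array 3, the arrays of the higher ceiling, and at 6.37 to 7.19 on the others. Within the 5 arrays of the lower ceiling its difference was 0.66. Without paracardial array 4 the differences were 0.20 for Gins2, 0.26 for Gins3 and 0.11 for Gins4. The Cdc45 call held only without paracardial array 4 (0.0252) among the 7 single arrays left out, with 0.0562 to 0.142 otherwise. That of Gins1 held in 5 of these fits and ended without paracardial array 1 (0.0525) or intra-abdominal array 2 (0.0709).

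**Figure D2:**
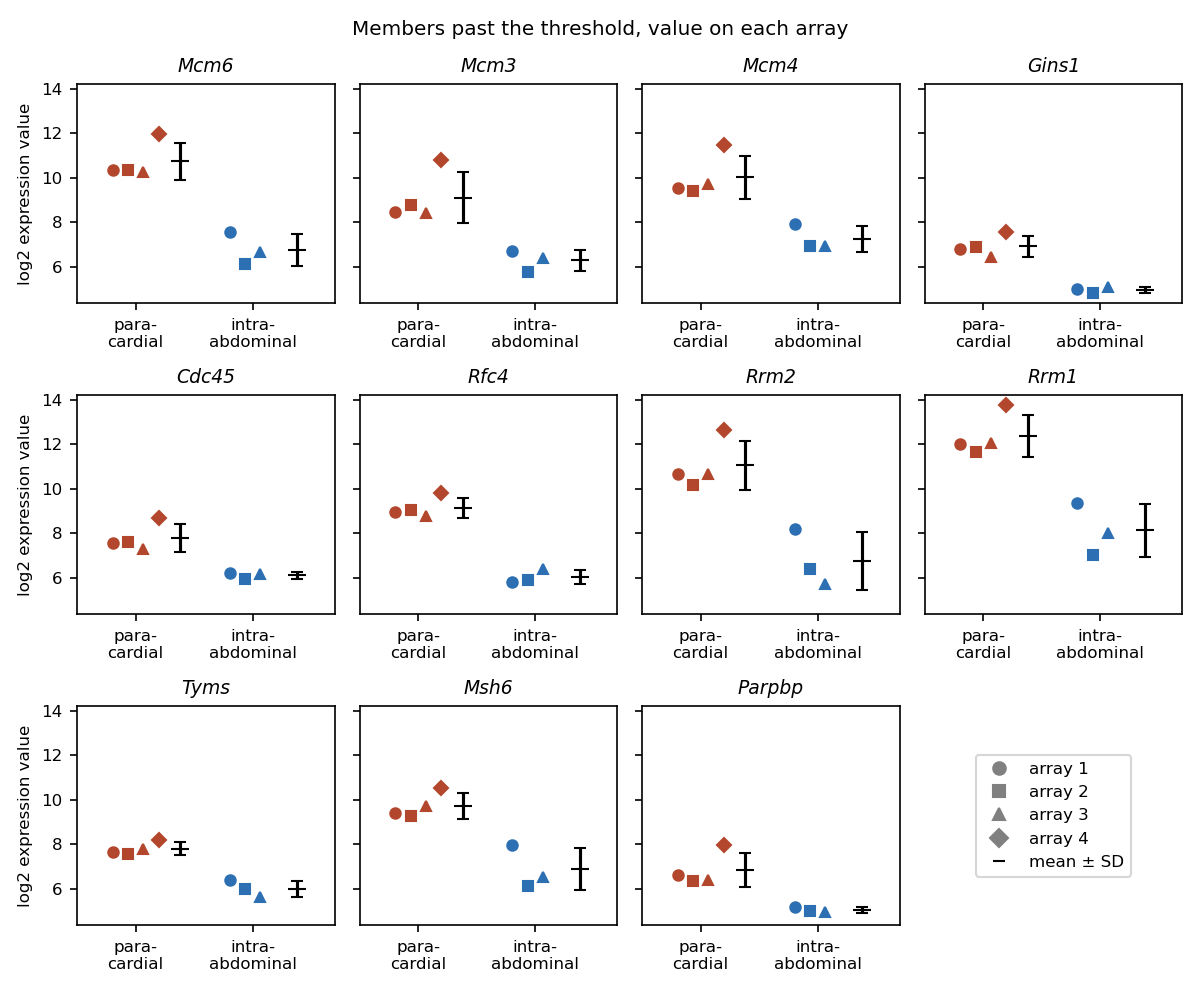
Log2 expression value of each of the 11 members called higher, by depot, with 1 marker per array and the mean ± SD beside it (n = 4 paracardial, n = 3 intra-abdominal). In all 11 panels every paracardial array lies above every intra-abdominal array, and array 4 (diamond) is the highest paracardial array.

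Among the genes of the polymerases and their clamp, Rfc4 was higher and the other 6 did not pass. Rfc4 encodes a subunit of the loader that opens the PCNA ring. It stood at 8.96, 9.07, 8.78 and 9.80 on paracardial arrays 1 to 4, against 5.84, 5.90 and 6.42 on intra-abdominal arrays 1 to 3. The arrays of each depot lay close together beside a gap of 2.36 between the depots. The difference was 3.10 ± 0.31 (adjusted p = 0.00818), the smallest adjusted p among the members, and Rfc4 kept its call without any 1 of the 7 arrays (0.0063 to 0.041). It differed by 3.39 within the 2 arrays of the higher ceiling and by 3.07 within the other 5.

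The loader partners of Rfc4 did not follow it past the threshold. Rfc2, another small subunit, differed by 0.89 ± 0.49 (adjusted p = 0.333), and Rfc1, the large subunit, by 0.63 ± 0.62 (0.590). Their intervals reached 2.05 and 2.12, so neither gene is shown to be equal between depots. Without paracardial array 4 the differences were 0.47 for Rfc2 and 0.11 for Rfc1. Rfc1 was listed at exactly the same value, 7.14, on paracardial arrays 1 to 3 and at 9.24 on array 4, against 6.99, 6.40 and 7.71 on the intra-abdominal arrays.

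Pole2, the second subunit of the leading-strand polymerase epsilon, and Pold3, a subunit of the lagging-strand polymerase delta, lay higher on every paracardial array than on any intra-abdominal array without passing the test. Pole2 averaged 6.43 ± 0.71 in paracardial fat and 5.09 ± 0.24 in intra-abdominal fat (difference 1.34, adjusted p = 0.095). Pold3 averaged 7.78 ± 0.51 in paracardial fat and 6.56 ± 0.14 in intra-abdominal fat (1.21, 0.0569). Without paracardial array 4 both passed, with adjusted p = 0.0406 for Pole2 and 0.0329 for Pold3. Fen1, the nuclease that trims Okazaki fragments, differed by 0.63 (adjusted p = 0.137). Pold4, the small subunit of polymerase delta, ran the other way at -0.59 (0.553), with 5.85, 5.83, 5.53 and 6.09 on the paracardial arrays, against 5.81, 5.67 and 7.76 on the intra-abdominal arrays. The high value lay on intra-abdominal array 3, and without it and paracardial array 4 the difference was -0.0028.

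Of 4 genes of nucleotide supply and histone deposition 3 were called higher, and the subunits of ribonucleotide reductase had the largest differences of all members. Rrm1, the large subunit of ribonucleotide reductase, stood at 12.02, 11.65, 12.06 and 13.74 on paracardial arrays 1 to 4, against 9.38, 7.02 and 8.01 on intra-abdominal arrays 1 to 3. Rrm2, its small subunit, whose level rises in S phase, stood at 10.67, 10.19, 10.68 and 12.65 on the paracardial arrays, against 8.20, 6.38 and 5.72 on the intra-abdominal arrays. In both genes intra-abdominal array 1 was the highest of its depot and still lay below the lowest paracardial array, by 2.26 for Rrm1 and 1.98 for Rrm2. The differences were 4.23 ± 0.70 for Rrm1 (adjusted p = 0.0186) and 4.28 ± 0.79 for Rrm2 (0.0236).

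Tyms, thymidylate synthase, stood at 7.64, 7.56, 7.82 and 8.21 on the paracardial arrays, against 6.40, 5.98 and 5.67 on the intra-abdominal arrays (difference 1.79 ± 0.26, adjusted p = 0.0142). With single arrays left out, Tyms lost its call once, without intra-abdominal array 2 (0.0654). Rrm1 lost it without paracardial array 1 (0.0605) or intra-abdominal array 2 (0.074). Rrm2 passed only without paracardial array 4 (0.0398) or intra-abdominal array 1 (0.022), with 0.0522 to 0.103 otherwise. Within the 5 arrays of the lower ceiling Rrm1 did not pass (3.71, adjusted p = 0.0573). Chaf1a, the subunit of chromatin assembly factor that binds PCNA and sets histones on new DNA, differed by 0.93 ± 0.29 without passing (adjusted p = 0.0979), and its depots did not overlap.

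Of the repair and checkpoint genes, Msh6 and Parpbp were called. Msh6, which recognises mismatches behind the fork, was the 1 mismatch repair gene among the members and was higher. It stood at 9.40, 9.26, 9.72 and 10.53 on the paracardial arrays, against 7.95, 6.15 and 6.56 on the intra-abdominal arrays (difference 2.84 ± 0.51, adjusted p = 0.0224). The Msh6 call held only without paracardial array 4 (0.0454) or intra-abdominal array 1 (0.0148), with 0.0527 to 0.0882 when any other array was left out. Within the 5 arrays of the lower ceiling its adjusted p was 0.0819.

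Of 5 recombination and Fanconi genes 1 was called higher, with a median difference of 0.85. It was Parpbp, which encodes a PCNA-bound protein that restrains recombination, with 6.62, 6.37, 6.41 and 7.98 on the paracardial arrays, against 4.97 to 5.22 on the intra-abdominal arrays (difference 1.78 ± 0.42, adjusted p = 0.0492). This call held only without paracardial array 4 (0.0218), with 0.0793 to 0.166 when any other array was left out. Brca1, which directs broken ends into recombination, stood at 5.22, 5.16, 5.23 and 6.33 on the paracardial arrays, against 4.81, 4.52 and 4.51 on the intra-abdominal arrays (0.87 ± 0.33, adjusted p = 0.164). The depots did not overlap in Brca1 either, and the lowest paracardial array lay 0.35 above the highest intra-abdominal array.

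Rad51c, which acts in recombination, differed by 0.85 (adjusted p = 0.0619), and Fanci, the partner of Fancd2 at crosslinks, by 0.83 (0.275). Brca2, which acts in the repair of double-strand breaks, differed by 0.39 (0.516), and its value of 5.20 on paracardial arrays 1 and 2 was exactly that of intra-abdominal array 1. In all, 7 members held the same deposited value on more than 1 array, as did 19.03% of all genes, and no source used here states what made them equal.

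None of the 7 genes of single-strand break repair and the PARP family passed in either direction by limma, none had an unadjusted p under 0.05, and their median difference was -0.038. Xrcc1, the scaffold of single-strand break repair, differed by 0.48 ± 0.27 (adjusted p = 0.338), and Parp2, which senses DNA breaks, by 0.65 ± 0.37 (0.346). Parp3, which acts in the joining of double-strand breaks, had the largest difference of the group. It stood at 5.48, 5.75, 5.57 and 5.93 on the paracardial arrays, against 6.01, 6.07 and 7.66 on the intra-abdominal arrays (-0.90 ± 0.43, adjusted p = 0.268). No paracardial array reached the lowest intra-abdominal array, a pattern found in 8.78% of all genes, and the difference was -0.44 within the 5 arrays of the lower ceiling.

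The remaining PARP genes encode transferases known mainly for roles outside replication, such as Parp16 at the endoplasmic reticulum. They differed by 0.12 (Parp10), -0.038 (Parp6), -0.35 (Parp4) and -0.57 (Parp16), with adjusted p from 0.303 to 0.954. The intervals of Parp10 and Parp6 were -0.63 to 0.87 and -0.71 to 0.63, below the differences of Rrm1, Rrm2 or the Mcm ring. Both genes held exactly equal values on some arrays, however. Parp10 stood at 5.28 on paracardial arrays 1 to 3, and Parp6 at 6.63 on paracardial arrays 1 and 3 and intra-abdominal array 2. Since what made these values equal is unknown, the intervals cannot exclude a larger difference.

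None of the 3 RAD genes outside recombination passed, and none had an unadjusted p under 0.05. Rad21, the cohesin subunit cut at anaphase, stood at 11.02, 10.66, 12.20 and 13.90 on the paracardial arrays, against 10.81, 9.65 and 9.72 on the intra-abdominal arrays (difference 1.88 ± 0.81, adjusted p = 0.216). The depots overlapped, since paracardial array 2 lay below intra-abdominal array 1, and the difference within the 5 arrays of the lower ceiling was 1.06. Rad1 and Rad9a, subunits of the checkpoint clamp, differed by 0.46 (0.234) and 0.21 (0.756). The genes that matched by prefix alone were Topors, a ubiquitin and SUMO ligase that binds topoisomerase I (0.49, adjusted p = 0.481), and Mcm3ap, known for messenger RNA export (0.30, 0.543). Topors stood at 5.29, 5.30, 5.50 and 6.62 on the paracardial arrays, against 4.98, 5.28 and 5.31 on the intra-abdominal arrays.

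**Figure D3:**
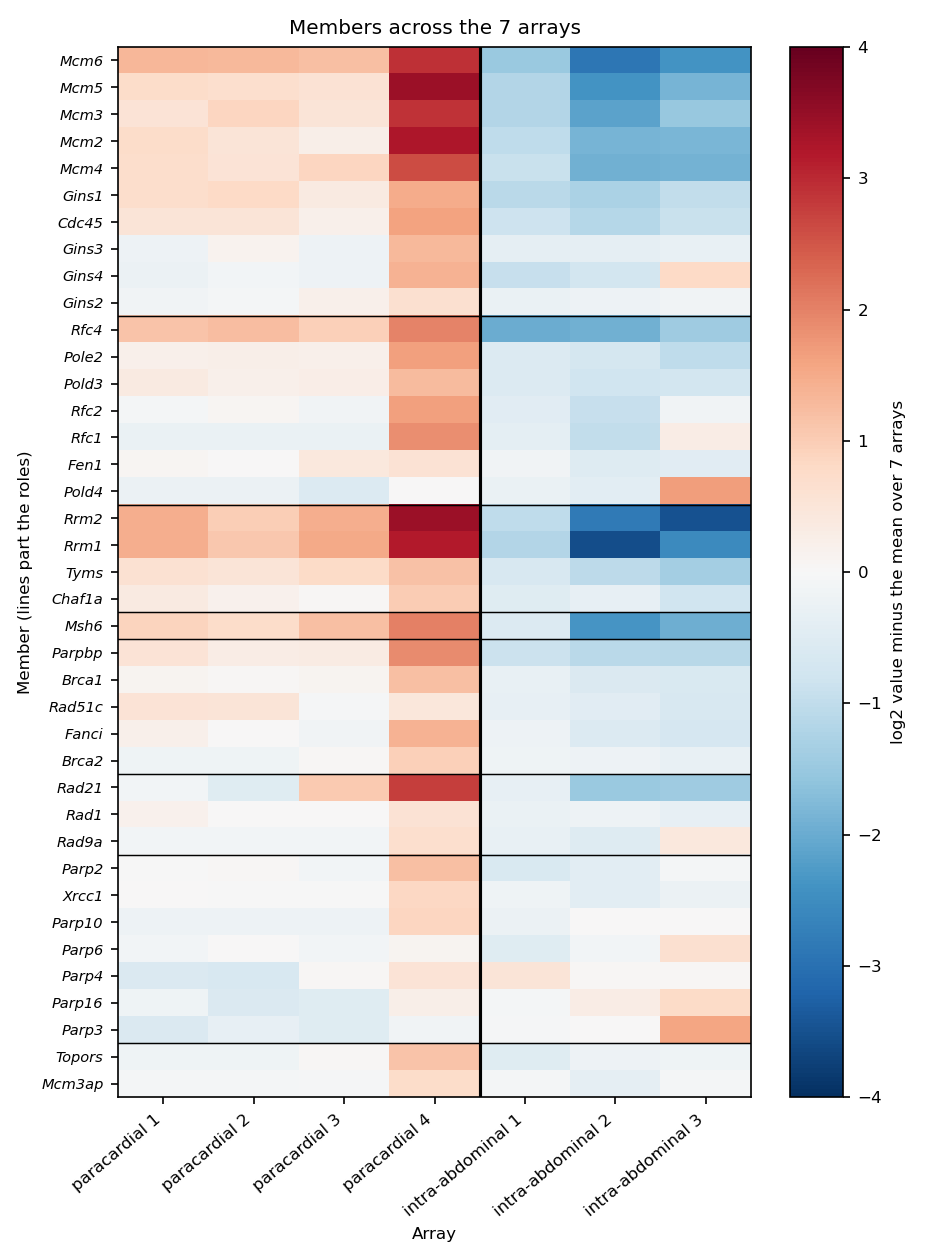
Log2 value of each member on each array after its mean over all 7 arrays was taken off, from -4 (blue) to 4 (red), with paracardial arrays on the left and lines between roles. Paracardial array 4 is the reddest column and is the highest paracardial array in 38 of 39 members.

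Paracardial array 4 was the highest of its depot in 38 of 39 members (97.4%), against 44.1% of all genes. Intra-abdominal array 1 was the highest of its depot in 9 of the 11 called genes. Over all 39 members it was highest or equal highest in 22 and lowest in 10, and its share over all genes was not counted. The median of the 11 called genes was 8.96, 9.07, 8.78 and 10.53 on paracardial arrays 1 to 4, against 6.73, 5.98 and 6.40 on intra-abdominal arrays 1 to 3. The median of the 28 other members was 6.03, 5.99, 5.94 and 6.82 on the paracardial arrays, against 5.67, 5.57 and 5.80 on the intra-abdominal arrays. In all 11 called genes the difference within the 2 arrays of the higher ceiling exceeded that within the other 5, with ranges of 2.48 to 6.93 and 1.36 to 3.71. The set of 2 holds 1 array per depot, and the share of all genes with this pattern was not counted. These 2 arrays also reached lower. On them 5% of probes lay below 3.9946 (paracardial array 4) and 3.9996 (intra-abdominal array 3), against 4.3806 to 4.4379 on the other 5. The part of this wider range in the larger differences was not tested. Without paracardial array 4, 13 of the 28 members not called had a difference above 0 that was over 1.5 times smaller. Beside the GINS and loader genes given above, the differences without it were 1.23 for Rad21, 0.49 for Fanci, 0.35 for Parp2, 0.27 for Xrcc1, 0.17 for Topors, 0.13 for Brca2, 0.10 for Mcm3ap and 0.0072 for Rad9a.

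Markers of dividing and thymic cells were also high on the paracardial arrays. Of 5 mitosis genes 4 were called higher, and their summed log2 value was 46.1 to 57.7 in paracardial fat and 28.8 to 37.1 in intra-abdominal fat. Of 6 thymocyte genes 3 were called higher, with sums of 68.1 to 85.6 in paracardial fat and 35.4 to 60.7 in intra-abdominal fat. Of 7 thymic epithelial genes 5 were called higher, with sums of 67.4 to 76.6 in paracardial fat and 37.8 to 53.8 in intra-abdominal fat. In each of these 3 lists paracardial array 4 had the highest sum of all arrays and intra-abdominal array 1 the highest of its depot. None of 6 B cell genes passed by limma, nor had any an unadjusted p under 0.05, but all 6 differences were above 0, with a median of 0.60. Their sums were 32.4 to 38.9 in paracardial fat and 29.6 to 31.8 in intra-abdominal fat. Of 6 macrophage and myeloid genes none passed by limma, 2 had an unadjusted p under 0.05, and all 6 differences were below 0, with sums of 39.4 to 52.2 in paracardial fat and 47.7 to 65.2 in intra-abdominal fat. The adipocyte sums were 54.0 to 91.7 in paracardial fat and 128 to 142 in intra-abdominal fat, and 6 of 9 genes were called lower. Of 4 endothelial genes 2 were called lower, with sums of 21.4 to 28.9 in paracardial fat and 37.2 to 49.5 in intra-abdominal fat. None of 4 brown fat genes or of 3 genes of fibroblasts and mesothelium passed, with 0 and 1 at an unadjusted p under 0.05. Brown fat sums were 38.4 on paracardial array 4 and 20.7 to 23.0 on paracardial arrays 1 to 3, against 20.3 to 22.7 in intra-abdominal fat, and those of fibroblasts and mesothelium 17.3 to 18.7 in paracardial fat and 19.4 to 23.4 in intra-abdominal fat. The lowest value of any marker in these lists was 4.19, near the bottom of the scale, since 5% of probes lay below 3.99 to 4.44 depending on the array. Whether the dimmest markers stood above background is unknown. The part of other cell types in the member differences was not tested.

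**Figure D4:**
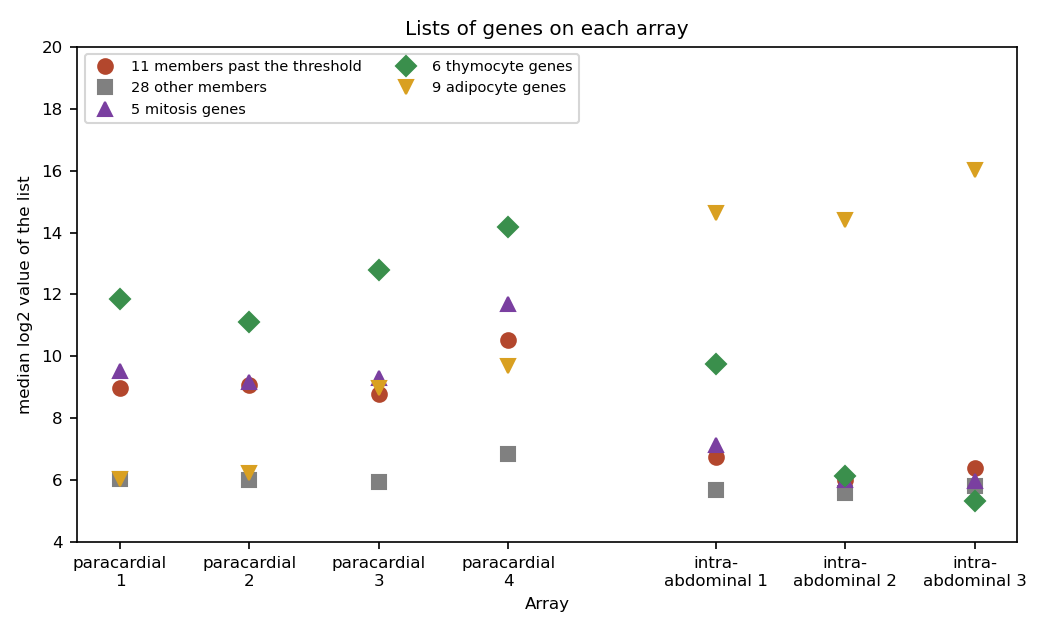
Median log2 value on each array of the 11 called members, the 28 other members and 3 marker lists, with paracardial arrays on the left. The called members stand at 8.78 to 10.53 on the paracardial arrays and 5.98 to 6.73 on the intra-abdominal arrays, beside thymocyte genes at 11.10 to 14.17 on the paracardial and 5.30 to 9.74 on the intra-abdominal arrays, while the adipocyte genes run the other way.

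Genes that act beside the members were grouped in 5 lists. Of 6 S phase control genes 2 were called higher and none lower, with a median difference of 1.47, and all 6 lay above 0. They were Tfdp1, the partner of E2F factors (1.77 ± 0.36, adjusted p = 0.0302), and Dbf4, which activates the kinase Cdc7 (1.49 ± 0.30, 0.0308). Tfdp1 stood at 10.04, 9.99, 10.32 and 11.28 on the paracardial arrays, against 8.91, 8.38 and 8.62 on the intra-abdominal arrays. Skp2, which marks cell cycle inhibitors for destruction, just missed the threshold (1.45, 0.051).

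Of 10 genes of fork, cohesion and chromatin maintenance 2 were called higher, with a median of 1.71 and all 10 above 0. Asf1a and Asf1b, chaperones that hand histones to the replication and repair machinery, both differed by 2.57 (adjusted p = 0.013 and 0.0353). Asf1a stood at 9.89, 9.95, 9.41 and 9.31 on the paracardial arrays, against 6.98, 6.44 and 7.79 on the intra-abdominal arrays. Paracardial array 4, the highest of its depot in 38 of the 39 members, was here the lowest. Of 10 damage signalling genes 1 was called higher, the histone variant H2ax that is phosphorylated at breaks (4.47 ± 0.97, adjusted p = 0.0366), while the median was 0.24. H2ax stood at 10.95, 10.80, 11.77 and 13.98 on the paracardial arrays, against 9.02, 6.71 and 6.47 on the intra-abdominal arrays.

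None of 7 further nucleotide synthesis genes passed (median 0.49, none at an unadjusted p under 0.05), and none of 13 excision repair and translesion genes (median 0.23, 2 at an unadjusted p under 0.05). Those 2 were the translesion polymerase Polh (95% interval 0.51 to 2.88, adjusted p = 0.0872) and the glycosylase Neil3 (difference 1.06, 0.0504), both named after their values were seen. The 5 list calls ended in part when arrays were left out: all 5 without paracardial array 1 (adjusted p from 0.0512 for Asf1a to 0.0764 for Asf1b), and all but Asf1a without any 1 of paracardial arrays 2 and 3 and intra-abdominal arrays 2 and 3. With intra-abdominal array 2 left out these were 0.124 for Dbf4, 0.126 for Tfdp1, 0.138 for Asf1b and 0.144 for H2ax. Tfdp1 also lost its call without intra-abdominal array 1 (0.0566) and with trend and robust fitting (0.0512), and H2ax within the 5 arrays of the lower ceiling (difference 3.31, 0.0795).

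**Figure D5:**
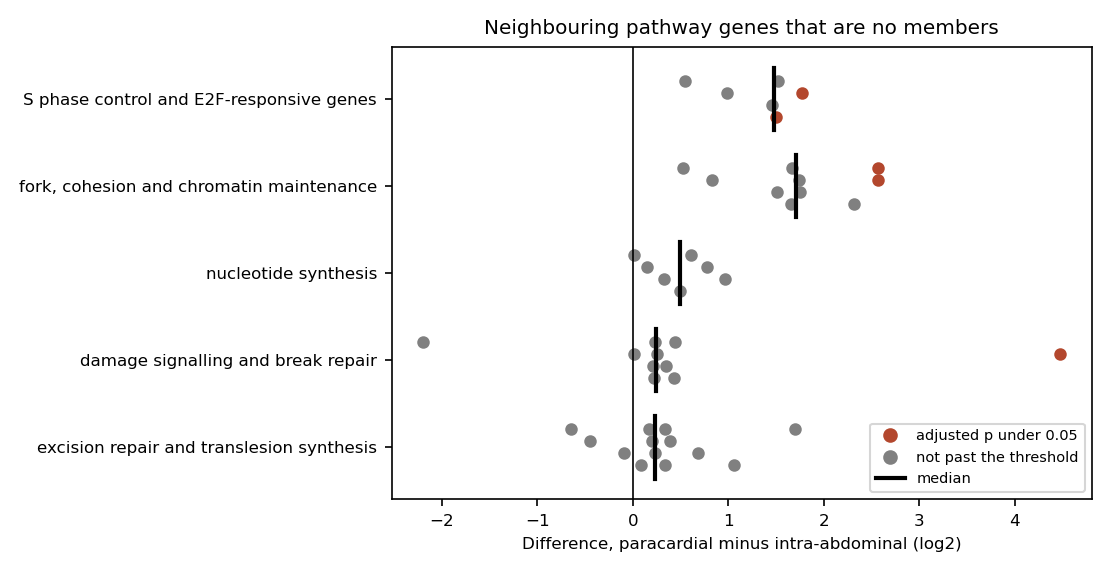
Difference between depots, paracardial minus intra-abdominal fat on the log2 scale, for genes of 5 neighbouring pathway lists, with 1 point per gene and the list median as a bar. Medians are 1.47 and 1.71 for S phase control and fork maintenance and 0.23 to 0.49 for the other 3 lists.

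The count of 11 called members rested on single arrays, and the share of all genes called higher moved as well. Without paracardial array 1 it was 3 (Mcm6, Rfc4 and Tyms) beside 1.44% of all genes, without array 2 it was 5 beside 2.74%, without array 3 it was 5 beside 2.86%, and without array 4 it was 15 beside 5.09%. Without intra-abdominal array 1 it was 8 beside 4.07% of all genes, without array 2 it was 1, Rfc4, beside 1.23%, and without array 3 it was 5 beside 6.12%. Without paracardial arrays 1 and 2, where adipocyte genes were lowest, none passed by limma (19 at an unadjusted p under 0.05 and a difference above 0), while 1 of all 9294 genes passed in either direction. The direction of the 11 was the same in each of these fits. This was fixed in advance, since their depots did not overlap on any array.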

How the data were processed

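Total RNA of both depots was the starting material, and labelled cDNA was hybridised to Affymetrix arrays, per the labels. For each probe the authors deposited a log2 value on every array. The submitters' processing notes name RMA and Affymetrix Expression Console. Their versions, the genome build and what set the ceiling were not given in the sources used here. Precision is limited by how few arrays there are.

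Of 11949 probes, 9352 had 1 gene symbol in the platform annotation. The other 2597 were left out. Symbols were updated through Entrez identifiers of RefSeq (GRCm38.p6, 5789 probes matched, 188 symbols changed), and the probe with the highest mean was kept for 9294 genes. The same 39 members matched without the update. Two-sided tests on all 7 arrays used limma 3.58.1 (R 4.3.3), with a moderated variance shared over genes without a trend, no covariate, and 5 residual and 1.68 prior degrees of freedom, and intervals are at 95%. The fit was tested on simulated data. Python 3.11.15, pandas 2.3.3, numpy 2.4.6 and matplotlib 3.10.9 did the rest.

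Members, lists, tests and alternatives were chosen with earlier results of these data known. The rule named up to 3 called members per role with the largest difference, or the 1 largest, the measured ones of a set of genes that includes Pcna, Mcm2 to Mcm7, Rrm1, Rrm2, Top2a, Brca1 and Parp1, and up to 2 called genes per pathway list, 20 in all. Other members are given by name or count. No gene of the cardiac muscle list was analysed. Alternatives were filters on dim genes, further normalizations, other variance models, array weights, blocks, probe and symbol choices, and arrays left out.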

Additional observations from a re-analysis of the deposited data

Results flagged for a closer look

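On paracardial array 4, 18 of the 39 members lay far above paracardial arrays 1 to 3, with a gap to the next array that passed Dixon's critical value for 4 samples. Chance flags about 1 in 20 independent groups, counting a gap at either end and on any array, so a high gap on array 4 alone is rarer. Members share the same arrays and are not independent groups. The same gap on array 4 was found in 7.98% of all 9294 genes, against 46.2% of the members. Among the called genes these were Mcm6 (11.97 on array 4, against at most 10.36 on the others), Mcm3 (10.79 and 8.78), Mcm4 (11.46 and 9.70) and Parpbp (7.985 and 6.62). Among the other helicase and fork genes they were Mcm2 (11.41), Mcm5 (10.96), Gins4 (8.70), Pole2 (7.49), Pold3 (8.53), Rfc1 (9.24) and Rfc2 (8.55). Among repair and other genes they were Brca1 (6.33), Xrcc1 (6.84), Parp2 (7.36), Parp10 (6.34), Rad9a (7.46), Topors (6.62) and Mcm3ap (6.79). In Rfc1, Rad9a and Parp10 the other 3 paracardial arrays held exactly the same value, so the gap is the whole range. The mitosis, thymocyte and thymic epithelial lists were also highest on this array, as were B cell genes (sum 38.95) and brown fat genes (sum 38.39, against at most 23.01 on any other array). So were all 5 pathway lists, such as excision repair (sum 99.54, against at most 89.51 on any other array). The macrophage, adipocyte, endothelial and fibroblast lists had their highest sums on intra-abdominal array 3. Among the paracardial arrays their sums were also highest on array 4. These were 52.21 against at most 46.93 for macrophages and 91.68 against at most 85.7 for adipocytes. For endothelium they were 28.86 against at most 25.3, and for fibroblasts and mesothelium 18.67 against at most 18.29. The median over all probes was also highest on paracardial array 4, at 6.37 against 5.99 to 6.26 on the other arrays. The part of these lists and of the array as a whole was not tested.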

How the results depend on the processing

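None of the 11 called members changed direction under the 22 alternatives (21 for Gins1 and Parpbp, which the filter on the dimmest 50% drops). In fits that only left arrays out this could not happen, since the depots of these 11 did not overlap. Parp10, Parp6, Pold4 and Parp4, none of them called, changed sign under 6, 4, 2 and 1 of the alternatives run on them. The number called higher was 25 with array weights, which called 3614 of all genes and also 2 members lower, Parp4 and Parp16. It was 0 with the replicate number as a block (18 at an unadjusted p under 0.05 and a difference above 0; no gene of 9294 passed), in which paracardial array 4 has no partner, and 0 without paracardial arrays 1 and 2 (19 at an unadjusted p under 0.05). Whether equal numbers mark samples of the same mouse is not stated. Deviations from the depot means correlated at 0.048, 0.047 and -0.5 over genes for same-numbered arrays, and from -0.379 to 0.49 for other pairs. With so few arrays per depot, these correlations cannot decide whether the samples are paired. With each array left out, 1 to 15 members were called higher and 0 lower, with medians of 0.53 to 0.99. The median difference was 1.88 among the 19 members left when the dimmest 50% of genes were dropped, with 11 of them and 13.6% of genes higher. In the remaining fits 11 to 16 members were higher and 0 lower, beside 4.69% to 11.6% of all genes higher (16 members beside 11.6%). For the 20 named genes, 331 values kept their side of the threshold, 85 fell short of it and 18 newly passed; the cause was not tested. Whether dim members stood above background is unknown, since no background value was analysed here.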
